A study of Mus musculus with 3 samples.

Results

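Acinar-to-ductal metaplasia (ADM) cells of the inflamed mouse pancreas were set against duct cells of the same experiment, gene by gene. Both cell types were cut by laser microdissection from frozen pancreas of 3 wild-type mice, 48 h after caerulein pancreatitis, and each gave 1 Agilent array of 1 colour. The remaining array held acinar cells collected the same way, so all 3 groups shared genotype, caerulein and time, and no untreated pancreas was among them. Caerulein mimics the gut hormone cholecystokinin and at high dose makes acinar cells digest themselves. How the dissected cells were recognised, the ages and sexes of the mice, and whether an array held RNA of 1 mouse or a pool are not given in the sources used here. The array carried 55664 probes other than controls, and 28020 of them could be named, for 21150 genes. Genes entered the comparison when the scanner marked their probe as well above background on ADM, on duct or on both, and 14475 did. Of these, 11455 were above background on both arrays, 1501 on ADM only and 1519 on duct only.

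Acinar cells make and store digestive enzymes, while duct cells carry bicarbonate and water into the duct lumen. In ADM an acinar cell loses enzyme granules and takes on the shape and some markers of a duct cell. The change is seen during repair after pancreatitis, when it can be reversed, and it is also an early step towards pancreatic cancer. PTF1A, RBPJL, NR5A2 and GATA4 are transcription factors of the acinar state, and SOX9 and HES1 are factors of the duct and of the pancreatic progenitor.

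Levels are log2 signal with 0 at the array's 75th percentile, and differences are ADM minus duct in log2 units, so that 1 is a 2-fold and −1 the opposite 2-fold difference. Where 1 side was not well above background the difference is a bound and is written as "at least". With 1 array a group there was no test, and no difference has a replicate check. Precision is limited by this number. Counts of a family are therefore read against the share of all compared genes that differed by as much, and against the other probes of the same gene. At least 2-fold higher in ADM were 3121 genes, 21.6% of those compared, and 3594 genes, 24.8%, were at least 2-fold lower. Which direction held more genes depended on the scaling, with 3469 higher and 3275 lower when the 75th percentile was taken over probes above background on both arrays. Together 46.4% differed by 2-fold or more, and 7760 genes were within 2-fold. Counted by probe, named or not, 21.7% of 31863 were higher and 20.4% lower. On each of these 2 arrays about as many probes were above background, 27676 on ADM and 27849 on duct, against 22654 on acinar, whose 75th percentile of intensity was also the lowest (35.2, against 72.2 for ADM and 95.7 for duct). Other scalings were run for ADM against duct only, so where ADM or duct stood relative to acinar was not checked under them. The median SD over repeat spots lay between 0.0931 and 0.130 log2 units on the 3 arrays, which covers spot error within an array only. Across the 11455 genes above background on both arrays the levels correlated at r = 0.83, as a description across genes, which are not independent.

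**Figure D1:**
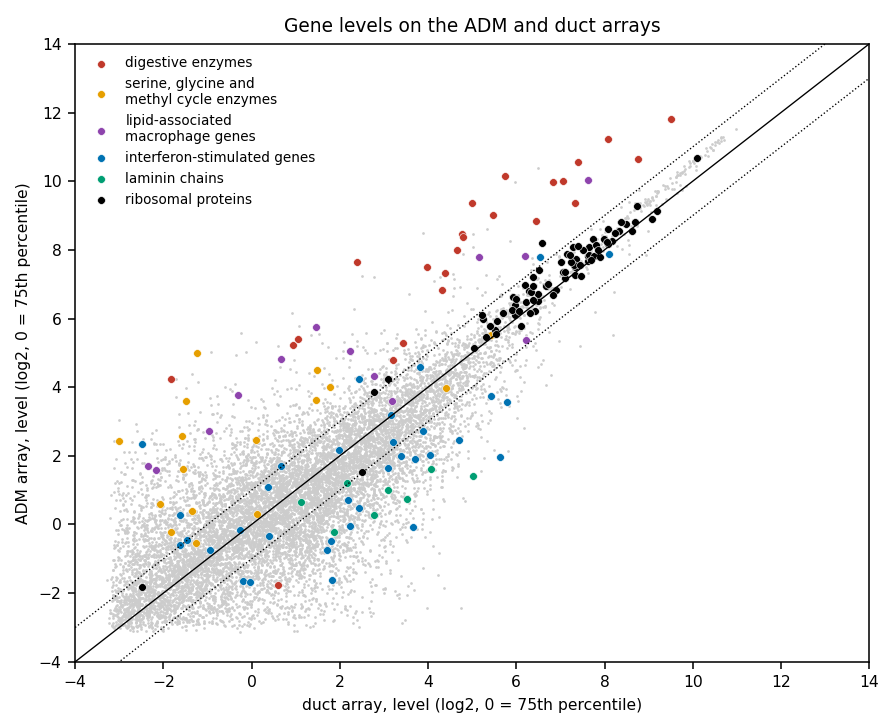
Level of each gene on the duct array (x axis) and on the ADM array (y axis), in log2 units with 0 at the array's 75th percentile, for the 11455 genes well above background on both arrays. The solid line marks equal levels and the dotted lines a 2-fold difference; digestive enzymes (red) lie above the upper dotted line except Dnase1, laminin chains (green) lie below the solid line, and ribosomal protein genes (black) stay mostly between the dotted lines.

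Repeat probes of a gene agreed only in part, which sets how far a single gene can be read. For 3443 genes a second probe was also compared, and the differences given by the brightest and the second probe correlated at r = 0.28, with a median gap of 1.11. Of the 1533 genes at least 2-fold apart by the brightest probe, the second probe gave the same direction in 1014 (66.1%, Wilson 95% interval 63.7 to 68.5, over genes), and in 284 it differed by at least 2-fold the other way. Agreement was better for bright probes. Where the second probe had a mean level of 2 or more (405 genes), r was 0.55, and 74 of 92 genes at least 2-fold apart (80.4%) kept direction, with 3 opposed by 2-fold. Of 3455 genes with several compared probes, 316 had every probe at least 2-fold higher in ADM, 314 every probe at least 2-fold lower and 357 had probes opposed by 2-fold.

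**Figure D2:**
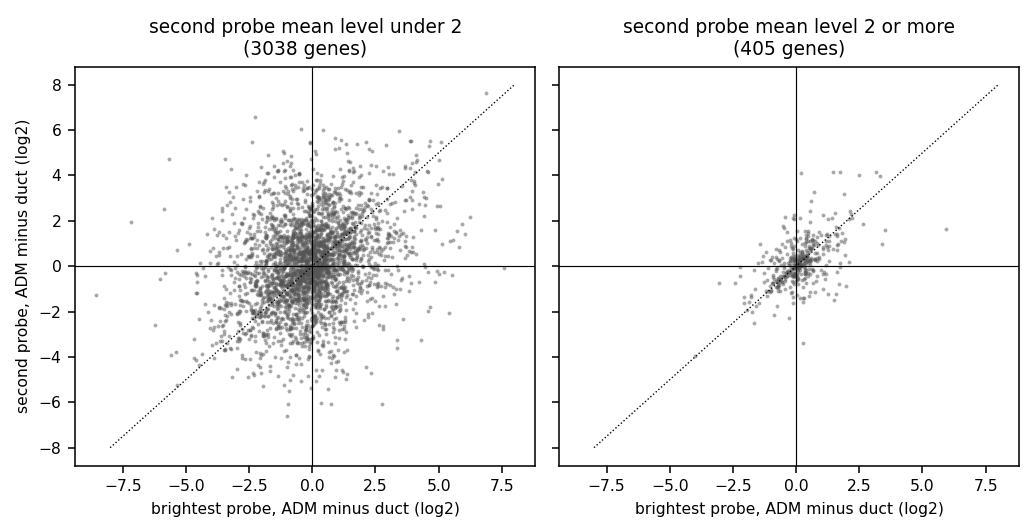
ADM minus duct (log2) by the brightest probe of a gene (x axis) and by its second-brightest probe (y axis), 1 point a gene, split at a mean level of 2 of the second probe. The 405 genes with a bright second probe (right) lie closer to the dotted line of equality, with r = 0.55, than all 3443 genes together, with r = 0.28.

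The labels were checked against defining markers. Of 7 acinar markers, 6 were higher in ADM than in duct and 1, Bhlha15, was within 2-fold (0.13). Of 8 duct markers 7 could be compared, and 5 were lower in ADM (among them Krt19, Sox9, Car2 and Aqp1), 1 was higher (Krt7, 1.15) and 1 was within 2-fold (Spp1, 0.41). Cftr, the chloride channel of the duct, was not well above background on any of the arrays. The duct array was not free of acinar or islet transcripts. All 24 digestive enzyme genes were well above background on it, Amy2a5 at a level of 8.75 and Ctrb1 at 9.51, and the insulin gene Ins2 stood at 8.36. Their part in the differences was not tested.

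Digestive enzyme transcripts separated the 2 arrays. All but 1 of the 24 genes were higher in ADM by 2-fold or more, 23 in number (median 3.16). All 11 trypsinogens and other serine proteases were higher, with a median of 3.53, as were all 6 lipase genes, with a median of 3.37. Prss2, a trypsinogen, stood at 10.15 in ADM, 5.74 in duct and 11.37 in acinar. Cela1, an elastase, stood at 5.24, 0.95 and 9.38 on the same arrays. In both genes the ADM level lay between the other 2, close to acinar for Prss2 and about midway for Cela1. This order was common among bright genes, and 129 of 146 genes at a level of 8 or more on all 3 arrays had it. The secreted kallikrein Klk1 differed by 5.27 (7.66 in ADM, 2.39 in duct, 9.72 in acinar), and the lipase-related Pnliprp2 by 6.08 (4.24, −1.83 and 7.27). Pancreatic lipase itself, Pnlip, differed by less, 2.50 (6.82, 4.32 and 10.12). The smallest differences were in Pla2g1b, a secreted phospholipase, at 1.57, Rnase1 at 1.87 and the amylase Amy2a5 at 1.90. The exception was the nuclease Dnase1, at −1.76 in ADM, 0.60 in duct and 0.03 in acinar. More than 1 compared probe was present for Prss1, Cela3a, Clps and Amy2a5, and every probe of each was at least 2-fold higher in ADM. Trypsins, amylases and elastases are closely related, so that a probe can bind more than 1 member.

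PTF1, the acinar complex of PTF1A, a common E-protein and RBPJL, binds an E-box with a nearby TC-box. Its letters were searched in the 250 bases before the start of each gene (RefSeq promoter table, GRCm38.p6), as CANNTG with TTTCCC or GGGAAA at most 20 bases apart. Of the 21 digestive enzyme genes with a promoter in the table, 5 held such a pair (23.8%), against 1193 of 27025 genes (4.41%). The 5 were Prss1, Ctrb1, Cela1, Cel and Cpa1. Stretches of 60 bases from 3 of them are shown as examples of the pair; capitals mark the boxes, and the strand is that of the gene, chr15:100687992-100688051 (−) for Cela1, chr8:111691178-111691237 (−) for Ctrb1 and chr6:30639158-30639217 (+) for Cpa1.
Cela1: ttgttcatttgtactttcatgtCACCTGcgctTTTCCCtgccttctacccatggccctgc
Ctrb1: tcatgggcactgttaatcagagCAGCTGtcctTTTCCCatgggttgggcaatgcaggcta
Cpa1: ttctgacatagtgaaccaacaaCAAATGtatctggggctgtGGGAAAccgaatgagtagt
In Cela1 and Ctrb1 the boxes lay 4 bases apart in the same order, and in Cpa1 the TC-box was on the other strand. A match is a description of letters and not of binding.

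Subunits and partners of this complex were themselves higher in ADM. Rbpjl stood at 4.40 in ADM, −1.35 in duct and 6.17 in acinar, a difference of 5.74. Ptf1a stood at 2.67, −1.40 and 2.70, a difference of 4.07. Nr5a2, a nuclear receptor that acts with PTF1 on enzyme genes, stood at 2.44, −3.11 and 2.18, and both of its probes were at least 2-fold higher in ADM (the lower 1.17). By the scaling used, the ADM array was level with acinar or above it for Ptf1a and Nr5a2, while Rbpjl lay below it. Gata4 was at least 4.91 higher (1.64 in ADM, not above background in duct). Other acinar factors did not separate the arrays. Bhlha15, the granule factor also called MIST1, stood at 2.26 in ADM, 2.13 in duct and 4.84 in acinar, and Nr0b2 at −2.24, −2.19 and 2.16. Xbp1, the factor of the secretory endoplasmic reticulum, differed by 0.24, and Creb3l1 was lower in ADM by −1.58. Over the 12 factors compared, 5 were higher, 1 was lower and 6 were within 2-fold (median 0.52). Rbpj, counted among the 5, had probes that disagreed in direction.

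Proteins of the zymogen granule and its release were higher in ADM in 12 of 17 genes, lower in 2 and within 2-fold in 3 (median 2.40). Cuzd1, a granule membrane protein, was at least 237-fold higher in ADM, and the water channel Aqp12 at least 4.24 log2 units. The trypsin inhibitor Spink1 differed by 4.63, Zg16 by 3.06 and syncollin, Sycn, by 2.40. Gp2, Tmed6 and Rab3d had 2 compared probes each, all at least 2-fold higher in ADM. The 2 genes lower in ADM were the surface mucin Muc1 (−1.08) and the vesicle protein Vamp2 (−1.99). Receptors that drive enzyme release went with the granules in part. Cckar, the cholecystokinin receptor on which caerulein acts, stood at 4.61 in ADM and 5.53 in acinar and was not above background in duct, a difference of at least 237-fold. Glp1r, the incretin receptor, stood at 2.43 in ADM, −1.67 in duct and 7.90 in acinar, and its 2 probes gave 4.10 and more. Vipr1, a receptor for vasoactive intestinal peptide, was lower in ADM (−2.90), and the secretin receptor Sctr was within 2-fold (0.35) by its brightest probe, with others from −2.59 to 2.04.

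Reg genes encode small secreted lectins of the injured acinar cell. All 6 measured were higher in ADM than in duct, with a median of 4.29. Reg3a stood at 4.93 in ADM, −0.35 in duct and 6.47 in acinar, and Reg1 at 10.38, 6.50 and 11.86. Reg3b differed by 4.74, Reg3d by 4.59 and Reg3g by 3.28. None of the 6 had a second compared probe, and the genes are alike enough in sequence for a probe to bind several. Acute-phase proteins, which also mark injury, did not go with them. Of 10, haptoglobin (Hp) alone was higher in ADM (4.05), 5 were lower, among them Crp (−3.43) and Lbp (−1.79), and 4 were within 2-fold, including Lcn2, which stood at 6.67 in ADM, 6.03 in duct and 1.96 in acinar.

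**Figure D3:**
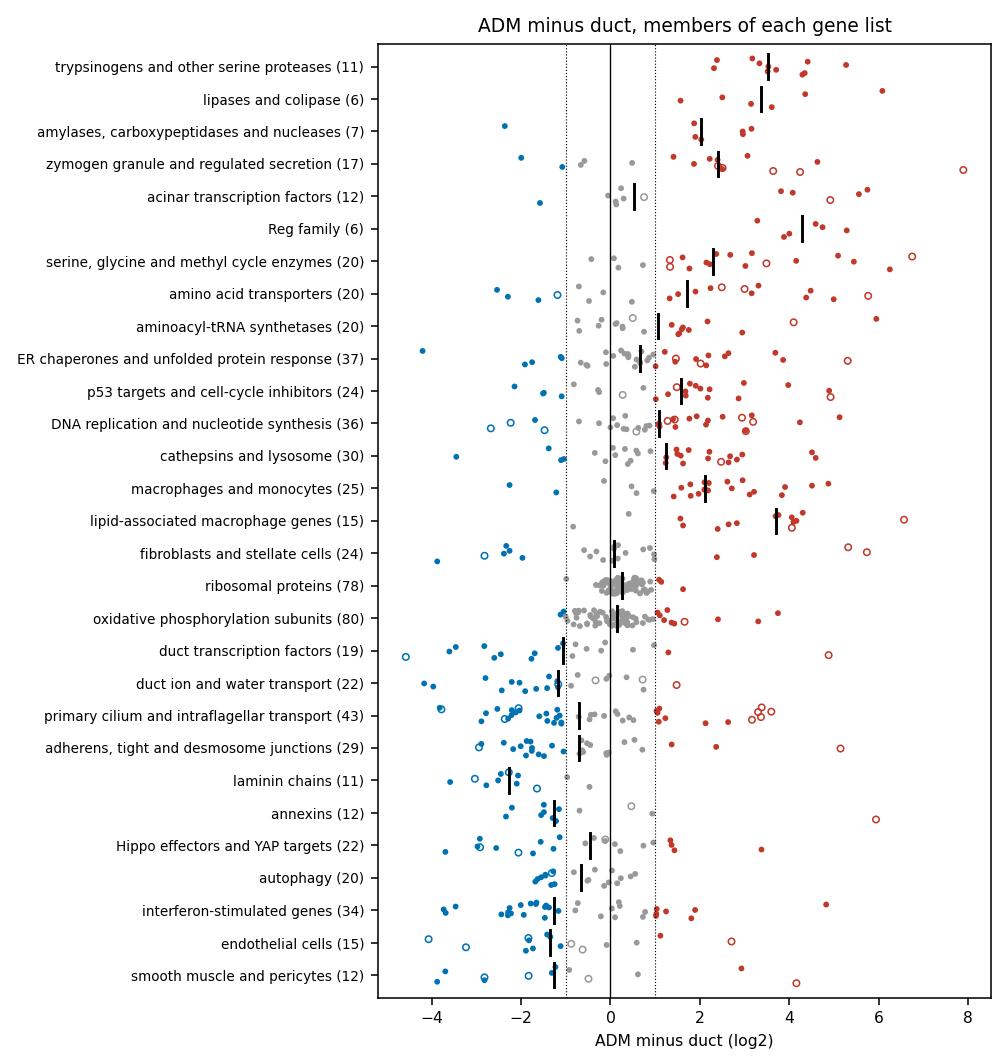
ADM minus duct (log2, x axis) of every compared member of 29 gene families, with the number compared in brackets. Points are genes (red at least 2-fold higher in ADM, blue at least 2-fold lower, grey within 2-fold, open where the value is a bound), black bars are medians, and dotted lines mark 2-fold; ribosomal protein genes cluster near 0 (median 0.27) while serine proteases lie to the right (3.53) and laminin chains to the left (−2.27).

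Genes that make, carry and load amino acids were higher in ADM in 38 of 60, against 21.6% of all genes. Of the rest, 4 were lower and 18 within 2-fold. Enzymes of serine, glycine, creatine and methyl-group metabolism included 16 genes of 20 that were higher in ADM and 0 that were lower (median 2.29). Several probes were compared for 8 of them, and in 6 every probe was at least 2-fold higher. Phgdh, the entry enzyme of serine synthesis, stood at 3.60 in ADM, −1.49 in duct and 4.60 in acinar, and both probes gave 5.09 or more. The next steps of that pathway, Psat1 (2.68) and Psph (2.37), went the same way by both of their probes. Ahcy, which clears S-adenosylhomocysteine, differed by 6.25, with 2.16 by its other probe. The mitochondrial folate enzyme Mthfd2 was at least 6.75 higher (3.47 in ADM, not above background in duct), and Shmt2 differed by 3.16. Gatm and Gamt, the 2 steps of creatine synthesis, differed by 5.44 and 2.15, and Gnmt, a glycine methyltransferase that acinar cells hold in quantity, by 4.15. Cth, the last enzyme of cysteine synthesis, was at least 3.49 higher and stood at 0.21 in ADM and −1.25 in acinar, so that here the ADM level was above both others. Shmt2 had the same order (1.61 in ADM, −1.55 in duct, −0.41 in acinar). Within 2-fold were Mat2b (0.08), Aldh1l2 (0.18), Bhmt (0.73) and, by its brightest probe, Mat2a (−0.43), whose other probe gave 6.03.

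Amino acid transporters were higher in ADM in 12 of 20 genes, lower in 4 and within 2-fold in 4 (median 1.71). Slc3a2, the shared heavy chain of several exchangers, stood at 6.72 in ADM, 3.56 in duct and 6.59 in acinar. Its partner Slc7a5, which carries large neutral amino acids, stood at 1.22, −1.02 and 5.54. The glutamine carriers Slc38a1 (4.99, all 3 probes at least 2-fold higher) and Slc38a3 (4.38) and the arginine carrier Slc7a1 (4.48) were higher as well. Slc38a1 and Slc7a1 stood higher in ADM (1.91 and 2.84) than in acinar (0.03 and 1.92), whereas Slc38a3 was lower than acinar (1.48 against 3.20). Lower in ADM than in duct were Slc7a2 (−2.54), Slc38a4 (−2.29), Slc36a1 (−1.61), whose probes opposed each other, and Slc38a9 (at least −1.18). Cytosolic aminoacyl-tRNA synthetases, which load amino acids onto tRNA, were higher in 10 of 20 genes, lower in 0 and within 2-fold in 10 (median 1.06). Wars differed by 5.94, with 1.63 by its other probe, Dars by 2.95, Sars by 2.17 and Gars by 1.59. Those of valine (Vars, −0.20), leucine (Lars, −0.26) and threonine (Tars, −0.74) were within 2-fold.

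Many of these genes are known targets of ATF4, the factor of the amino acid and endoplasmic reticulum stress responses, which binds a composite site with a C/EBP partner. Atf4 mRNA itself differed by 0.55 by its brightest probe (6.99 in ADM, 6.44 in duct, 7.94 in acinar) and by 1.96 by its other probe. TGATGNAA, the core of that site, or TTNCATCA on the other strand was found before the start in 5 of 44 genes of the 3 lists with a promoter in the table (11.4%), against 1056 of 27025 genes (3.91%). The 5 were Asns, Gars, Aars, Tars and Slc7a7, of which Tars (−0.74) and Slc7a7 (−0.71) were within 2-fold. The site did not go with the direction, being present in 3 of 29 genes higher in ADM (10.3%) and in 2 of the other 15 (13.3%). Asns, asparagine synthetase, is the textbook case. It stood at 4.49 in ADM, 1.48 in duct and 5.82 in acinar. The sites of Asns and Gars are shown in capitals, on the strand of the gene, from chr6:7693210-7693269 (−) and chr6:55037941-55038000 (+), GRCm38.p6.
Asns: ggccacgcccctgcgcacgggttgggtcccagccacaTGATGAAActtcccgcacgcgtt
Gars: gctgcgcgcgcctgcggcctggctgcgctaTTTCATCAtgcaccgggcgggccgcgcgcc
Other stress targets of the list did not all go one way. Sesn2 (3.97), Atf3 (4.18) and Trib3 (1.21) were higher in ADM, and Ddit3, or CHOP, was within 2-fold (−0.54).

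The machinery of the secretory pathway differed less than its cargo. Endoplasmic reticulum chaperones and stress genes were higher in ADM in 13 of 37 genes, lower in 5 and within 2-fold in 19 (median 0.65). Sel1l, part of the degradation complex, stood at 4.22 in ADM, 0.54 in duct and 5.66 in acinar. Sdf2l1 (2.64), Manf (2.56), Creld2 (2.14) and the pancreatic disulphide isomerase Pdia2 (2.19, both probes) were higher, and Ern1, which encodes the stress sensor IRE1, differed by 3.86. The main chaperones were close to even, Hspa5 at 4.98 in ADM, 4.58 in duct and 6.68 in acinar, and Hsp90b1 at 5.29, 4.43 and 6.26. Txndc5 (−4.20), Derl1 (−1.91) and Hyou1 (−1.11) were lower in ADM. Genes of translocation into the endoplasmic reticulum were higher in 12 of 37, and those of transport to and within the Golgi in 8 of 34, shares of which the second is near the 21.6% of all genes. Ribosomal protein genes were within 2-fold in 75 of 78 (median 0.27), and respiratory chain subunits in 68 of 80 (median 0.15). As sets, those 2 families moved little between the arrays. So did genes at a level of 8 or more on all arrays, 143 of 146 within 2-fold.

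Among 19 duct transcription factors 10 were lower in ADM, 2 were higher and 7 within 2-fold (median −1.06). Sox9 stood at 2.06 in ADM, 3.12 in duct and 1.43 in acinar, a difference of −1.06 that is just past 2-fold. Hes1, the Notch target, stood at 1.13, 2.82 and −1.38, and Onecut2 at 0.20, 3.65 and 1.51. For Sox9 and Hes1 the ADM level lay between acinar and duct, an order not counted over the list or over all genes. Pdx1 stood at 1.55 in ADM, 4.37 in duct and 3.70 in acinar, so that ADM was the lowest of the 3. Glis3 (−2.45) was at least 2-fold lower by both probes, the epithelial factor Ehf by the brightest (−1.77) but not by the other (−0.80), and Elf3 differed by −2.60. Foxa1 was at least −4.57, whereas Foxa3 went the other way by at least 4.88 (1.60 in ADM, not above background in duct, 3.25 in acinar). Foxa2 (−0.85, and −1.34 by its other probe), Hnf4a (−0.21) and Nkx6-1 (−0.53) were within 2-fold. In dissected tissue, fewer cells of a type and less RNA per cell cannot be told apart.

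Among 22 transport genes of the duct 13 were lower in ADM, 1 was higher and 8 were within 2-fold (median −1.18). Car2, the carbonic anhydrase that supplies bicarbonate, stood at −0.36 in ADM, 3.60 in duct and was not above background in acinar. Slc4a4, the sodium bicarbonate importer of the basal membrane, stood at 0.89, 3.68 and −1.19, and all 3 of its probes were lower in ADM. Aqp1, a water channel, stood at 2.10, 4.53 and −0.67. In these genes ADM lay between acinar and duct, an order not counted over the list or over all genes. The potassium channel Kcnn4 (−4.16), the chloride channel Ano1 (−1.91), the pump subunit Atp1b1 (−1.41) and the cotransporter Slc12a2 (−1.19) were lower too. Not all ion carriers were. The anion exchanger Slc4a2 differed by −0.09 (4.43 in ADM, 4.52 in duct, 4.46 in acinar).

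**Figure D4:**
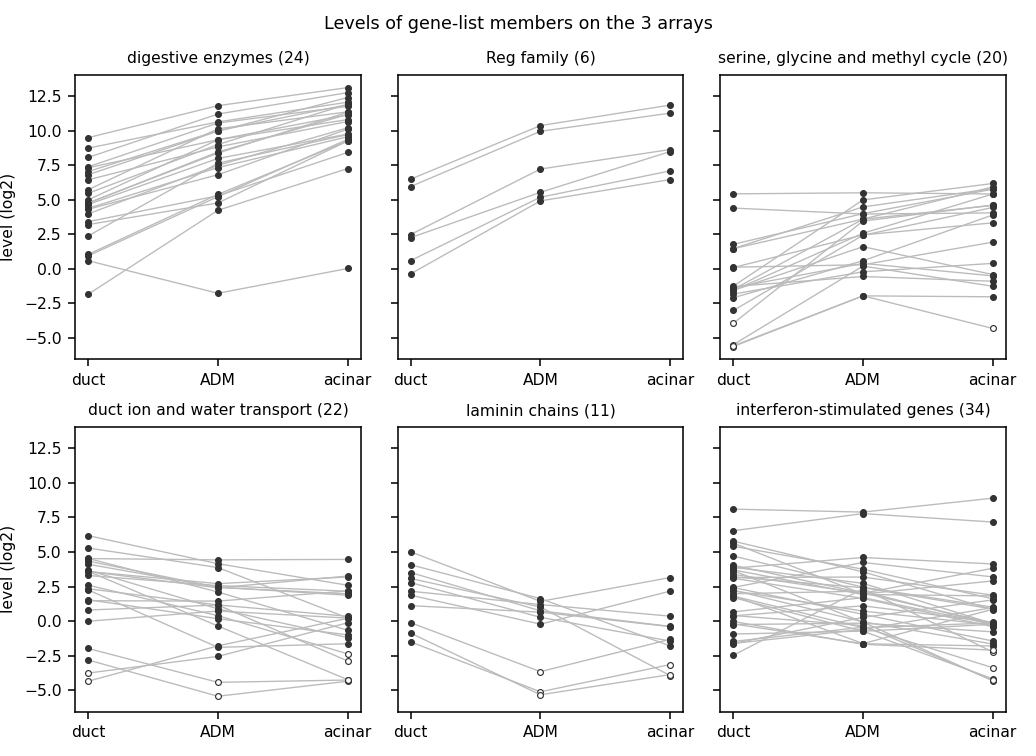
Level (log2, 0 at the array's 75th percentile, y axis) of each compared member of 6 gene families on the duct, ADM and acinar arrays (x axis). Lines join the 3 values of a gene and open circles are values not well above background; digestive enzymes and Reg genes step up from duct through ADM to acinar, with Dnase1 as the exception, an order that 129 of 146 genes bright on all arrays also had, and laminin chains step down from duct to ADM.

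Keratins and duct surface markers were mixed. Of 19 genes, 7 were lower in ADM, 4 higher and 8 within 2-fold (median −0.17). Krt19 stood at 2.94 in ADM, 4.37 in duct and 2.33 in acinar. Other keratins of simple epithelium went differently, Krt8 at 1.81, 0.63 and 1.47 and Krt18 at 6.67, 6.84 and 6.12. Krt7 was higher in ADM (0.80) than in duct (−0.35) and acinar (−2.16, not above background), and Krt20 was at least 3.11 higher than in duct. Krt17 (at least −4.69), Krt80 (−3.56) and Krt23 (−2.32) were lower. Tspan8, a tetraspanin, was at least 107-fold lower in ADM, and the stem and progenitor marker Prom1 differed by −2.63 by its brightest probe and was lower by both. Epcam (−0.20), Cd24a (0.02), Clu (0.25) and Spp1 (0.41) were within 2-fold. Gastric and mucous genes also divided, with 2 of 15 higher and 5 lower. Tff1 was at least −3.64 and Dclk1, a tuft cell marker whose probes opposed each other, −2.71. Tff2 stood at 5.22 in ADM and 4.78 in duct, below its acinar level, and Gkn3 was higher in ADM by 1.95.

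Claudins, the sealing proteins of tight junctions, were higher and lower at shares near those of all genes. Cldn4 stood at 4.59 in ADM, 0.64 in duct and −0.23 in acinar, and its other probe was higher by less than 2-fold (0.85). Cldn23 differed by 4.92 (2.76 in ADM, −2.17 in duct, not above background in acinar). Cldn2, which forms a pore, stood at 1.59 in ADM and 3.83 in duct and its other probe differed by −0.87, and Cldn8 (−2.36), Cldn12 (−1.87) and Cldn3 (−1.33) were lower as well. Of 13 claudins 3 were higher, 4 lower and 6 within 2-fold. Other junction genes were lower in ADM in 14 of 29, against 24.8% of all genes, higher in 3 and within 2-fold in 12 (median −0.69). Tjp1, or ZO-1, stood at 1.87 in ADM, 3.75 in duct and 0.92 in acinar, and the cadherin Cdh1 at −0.32, 1.16 and −0.33. The desmosome genes Jup (−1.75), Dsp (−1.76, both probes lower) and Pkp2 (−2.38) and Nectin2 (−2.01, both probes) were lower, and the catenins Ctnnb1 (−0.09) and Ctnnd1 (−0.04) were within 2-fold. Gap junction genes split, with Gjb1 at −2.17 and Gjb2 at least 5.14, the latter gene at 1.87 in ADM and 4.19 in acinar.

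Laminin chains build the epithelial basement membrane. Of 11 chains 9 were lower in ADM and 0 higher (median −2.27). Lama5 stood at 1.43 in ADM, 5.01 in duct and 3.15 in acinar. Lama3 stood at 0.74 in ADM and 3.51 in duct, and Lamb3 at 1.19 and 2.16, just within 2-fold (−0.97). Lamc1 stood at 1.02 in ADM and 3.08 in duct, and Lamb1 at 0.27 and 2.78. Both probes of Lama3 were at least 2-fold lower, and both probes of Lama2 were within 2-fold. Integrins, their receptors, did not follow. Of 24, 7 were higher and 7 lower. Itga3 was lower (−1.03), whereas Itgb4 (1.11), Itgb1 (1.01, and 0.41 by its other probe) and Itgav (2.45, both probes) were higher, and Itga6 was within 2-fold (0.86). Itgb2 (5.38) and Itgal (4.30), which form a leukocyte integrin, were the 2 largest.

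Annexins, which bind membrane phospholipid in the presence of calcium, were lower in ADM in 8 of 12 genes, higher in 1 and within 2-fold in 3 (median −1.25). Anxa2 stood at 3.19 in ADM, 4.74 in duct and 1.83 in acinar. Its partner S100a10 stood at 3.28, 5.07 and 0.63, and S100a6 at 5.34, 6.96 and 0.75. In each of the 3 the ADM level lay between duct and acinar, an order not counted over the lists or over all genes. Anxa11 was at least 2-fold lower by both probes, and Anxa1 (−1.22 and −0.97) and Anxa7 (−2.20 and −0.29) by 1 probe of 2. Anxa13 differed by −2.34 and Anxa4 by −1.49. The exception was Anxa10, a gene of gastric epithelium, at 2.66 in ADM, not above background in duct and 1.22 in acinar, a difference of at least 5.94. S100a11 was within 2-fold (−0.11).

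Genes of the primary cilium, an organelle that duct cells carry and acinar cells lack, numbered 43, and 21 were lower in ADM, 12 higher and 10 within 2-fold (median −0.71). Pkhd1 (−2.21) and Pkd2 (−2.03), products of polycystic disease genes, and the kinesin Kif12 (2.13 in ADM, 4.91 in duct, −1.89 in acinar) were lower. Of the intraflagellar transport genes Ift122 (−2.29, and −0.77 by its other probe), Ift57 (−2.21), Ift43 (−1.59) and Ift88 (−1.43) were lower, Ift140 (1.23) and Ift22 (at least 3.36) were higher, and Ift20 (0.42) and Ift81 (0.16) were within 2-fold. Rfx3 and Kif3a had probes that opposed each other.

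Signalling genes were compared by pathway. Targets and effectors of the Hippo pathway, which restrains the coactivators YAP and TAZ, numbered 22, and 10 were lower in ADM, 4 higher and 8 within 2-fold (median −0.47). The YAP target Ccn2 stood at 1.78 in ADM, 4.33 in duct and −3.10 in acinar, the last not above background. Amotl2 (−3.69), tissue factor F3 (−2.97, and −0.27 by its other probe), Ajuba (−1.73) and Ccn1 (−1.27) were lower, Yap1 differed by −1.13 and Wwtr1, or TAZ, by −0.37. Axl (1.43) and Tead2 (1.34) were higher. In the TGF-beta and BMP pathway 11 of 30 genes were lower and 5 higher. Ltbp1, a latency protein, differed by −5.35, Bmp4 by −4.55 with −0.69 by its other probe, Tgfb3 by −2.36 and Id1 by −2.66. The receptor Tgfbr2 was higher (1.03) by both probes.

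Receptors of the EGF family and their ligands were lower in ADM in 4 of 11 and higher in 0. Egfr was within 2-fold by its brightest probe (2.75 in ADM, 2.43 in duct, 3.28 in acinar; others from −1.34 to 0.83), as was Erbb3 (2.54, 2.18 and −1.54), and Erbb2 was lower (−0.66 in ADM, 1.39 in duct, not above background in acinar). Of 20 genes of the MAPK pathway 4 were higher and 4 lower, near the 21.6% and 24.8% of all genes. Feedback inhibitors were within 2-fold (Dusp6, −0.78) or lower (Spry1, −1.57). Of 23 early-response factors 8 were higher and 3 lower (median 0.59). Atf3 stood at 1.23 in ADM, −2.95 in duct and −1.67 in acinar, Klf4 at 0.14 and −1.19, and Egr1 at 4.52, 3.46 and 4.06. Jun (−1.74) and Junb (−1.09) were lower, and Fos was within 2-fold (−0.69). Klf5, an epithelial factor, was lower in ADM (−3.42). Notch genes were within 2-fold in 14 of 23, against 7760 of 14475 of all genes. Jag1 (1.20), Hey1 (1.74), Mfng (2.18, both probes) and Lfng (4.32) were higher and Hes1 and Jag2 (at least −3.06) lower.

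Cell-cycle inhibitors and targets of p53 numbered 24, of which 15 were higher in ADM, 4 lower and 5 within 2-fold (median 1.58). Cdkn1a, or p21, stood at 1.65 in ADM and was above background on neither other array, and both of its probes were at least 2-fold higher than in duct. Trp53inp1 stood at 4.06 in ADM, 1.08 in duct and 2.55 in acinar, also higher by both probes. Sesn2 (2.74, −1.23 and 0.24), Bbc3, or PUMA (3.12, 0.25 and 1.62), and Phlda3 (3.67, 1.65 and 2.75) had the same order. In all of these the ADM array was the highest of the 3, an order not counted over the list or over all genes. Perp (2.22), Ccng1 (2.18), Bax (1.01) and Cdkn2b (1.29, and 0.63 by its other probe) were higher than in duct. Mdm2, a direct p53 target, was within 2-fold (−0.28), Pmaip1, or NOXA, was lower (−2.14), and so were Cdkn1b (−1.09), Cdkn2c (−1.51) and Cdkn2d (−1.49).

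Beside the inhibitors, genes of DNA replication were higher in ADM in 19 of 36, lower in 4 and within 2-fold in 13 (median 1.08). Rrm1, a ribonucleotide reductase subunit, stood at 2.41 in ADM, −2.71 in duct and 2.40 in acinar. Rrm2 stood at 2.04, −0.47 and 3.73, Mcm6 at 5.11, 2.97 and 4.13, and Uhrf1 at 1.69, −1.47 and 3.09 with a difference of 0.39 by its other probe. Pcna (−0.26) and Mcm5 (0.15) were within 2-fold, and Gins1 was at least −2.67. Of 29 mitotic genes 15 were higher and 1 was lower (median 1.06). Mki67, the proliferation marker, stood at 1.64 in ADM, −2.03 in duct and 2.97 in acinar, higher by both probes, and Aurka at 1.14, −0.46 and 3.65. Birc5 was higher (3.38) by its brightest probe, with the other in the opposite direction. Among cyclins Ccnd1 (0.58) and Ccnd2 (0.59) were within 2-fold.

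Macrophage markers were higher in ADM in 19 cases of 25, and 2 were lower (median 2.10). Lyz2, the myeloid lysozyme, stood at 3.23 in ADM, −1.64 in duct and 1.02 in acinar. Cd68 stood at 5.32, 2.11 and 3.70, C1qa at 3.13, −0.71 and 1.84, and the signalling adaptor Tyrobp at 7.08, 4.13 and 4.86. In all 4 the ADM array was the highest, which was likewise not counted over the list or over all genes. Adgre1, or F4/80, differed by 1.41 with both probes higher, Csf1r by 0.97 with probes in both directions, Cd14 by −1.21 and Ptprc, the CD45 gene, by −0.14. Cd163 was above background on none of the arrays. Of 15 genes of lipid-laden macrophages 13 were higher and 0 lower (median 3.69). Gpnmb was at least 6.56 higher in ADM, at 3.29, and above background on neither other array. Trem2 stood at 5.76 in ADM, 1.46 in duct and 2.91 in acinar, Apoe at 10.03, 7.63 and 7.99, and the elastase Mmp12 at 1.58, −2.18 and not above background. Lpl and Fabp4, higher by 3.69 and 4.09, are also adipocyte genes. Summed over the 26 macrophage genes on the array, the linear level relative to the 75th percentile was 1357 in ADM, 833 in duct and 1527 in acinar, and over 16 lipid-associated genes 1721, 408 and 595. The first sum is led by the probe of Itgam, at 9.54, 9.07 and 10.41, which differed by 0.47, with up to 3.63 by other probes.

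Genes of the lysosome were higher in ADM in 16 of 30, lower in 4 and within 2-fold in 10 (median 1.24). This list shares members with the 2 before it, so it is not a separate set. Ctsd, Ctsl and Ctsb are also counted among the lipid-associated genes, and Ctss among the macrophage markers. The cathepsins Ctsd (7.79 in ADM, 5.15 in duct, 6.50 in acinar, both probes) and Ctsl (5.05, 2.23 and 5.42) were higher, as were Ctss (2.18), the legumain gene Lgmn (2.21) and Ctsb (1.62). Ctsl and Ctsb are expressed by acinar cells as well, where cathepsin B can activate trypsinogen. Scarb2 (−1.38) was lower. The autophagy list, whose products feed the lysosome, held 9 of 20 genes lower in ADM and 0 higher (median −0.67), among them Map1lc3b (3.72 in ADM, 5.18 in duct, 3.58 in acinar), Gabarapl1 (−1.55) and Becn1 (−1.63). The part of macrophages in the lysosomal difference was not tested.

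Chemokines were higher in ADM in 10 of 15 CC genes, lower in 2, and in 5 of 8 CXC genes, lower in 1. Ccl9 stood at 4.10 in ADM, −0.38 in duct and −1.41 in acinar, Ccl6 at 3.96, 0.80 and −0.87, and Ccl8 at 1.99, −0.92 and −1.73. Cxcl5, a neutrophil attractant, stood at 2.07, −0.20 and −3.40, the last not above background. The epithelial chemokines Ccl28 (at least −3.76) and Cxcl16 (−1.46) were lower in ADM. Most of these genes had 1 compared probe. Hmox1, the haem oxygenase of iron-handling macrophages and of oxidative stress, stood at 5.51 in ADM, 1.35 in duct and 2.92 in acinar, and both probes gave 4.16 or more. It is also a target of NRF2, whose 20 listed genes went both ways, 7 higher, 5 lower and 8 within 2-fold. Gpx4 (1.80), Pgd (1.67) and Txnrd1 (1.17) were higher, and Nqo1 (at least −4.06), Me1 (−2.85, all 3 probes) and Gclc (−1.16) lower. Vcam1 (3.88, both probes) and Tnf (at least 3.04) were higher and Icam1 (at least −2.30) lower. Within 2-fold were 13 of 21 NF-kB genes, against 7760 of 14475 of all genes. Of 22 complement genes 9 were higher, 4 lower and 9 within 2-fold. C1qa (3.83), C1qb (3.11), C3ar1 (at least 5.35), C5ar1 (at least 2.74) and C1s1 (1.45) were among those higher and Cfb (−2.81) and C2 (−1.65) among those lower. C1ra (0.34) and C4b (−0.43) were within 2-fold, and the probes of C3 gave −0.98 and −1.03.

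Interferon-stimulated genes numbered 34, of which 18 were lower in ADM, 7 higher and 9 within 2-fold (median −1.27). Irf7, the factor that amplifies the response, stood at −0.08 in ADM, 3.65 in duct and was not above background in acinar. Isg15, a ubiquitin-like protein, stood at 2.46 in ADM and 4.71 in duct, with a lower level in acinar, and its other probe differed by −0.71. Ifit3 stood at 3.56, 5.79 and 0.83, and Oasl2 at 2.03, 4.04 and −0.15. In these 4 genes the ADM level lay between duct and acinar, an order not counted over the list or over all genes. Ifit3b (−3.68), Ifih1 (−1.94) and Isg20 (−1.37) were at least 2-fold lower by both of their probes, Oas1a by 1 (−1.46, the other −0.06), and Stat2 differed by −1.78. Ddx58 had probes that opposed each other. The 7 in the other direction were Rsad2 (4.82, at 2.35 in ADM and −2.48 in duct), Irf5 (1.89), Bst2 (1.81), Ifitm3 (1.24), Irf8 (1.03), Ifit2 (1.03) and Ifi35 (1.02), of which Irf5 and Irf8 are also factors of myeloid cells. Antigen-presentation genes were within 2-fold in 15 of 23, including H2-K1 (0.11), B2m (0.67) and Cd74 (0.41), against 7760 of 14475 of all genes.

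Interferon responses act through a promoter element with the letters GAAANNGAAA, or TTTCNNTTTC on the other strand. It was found in 13 of 30 genes of the list with a promoter in the table (43.3%), against 936 of 27025 genes (3.46%). Within the list it did not go with the direction, being present in 6 of 15 genes lower in ADM (40.0%) and in 7 of the other 15 (46.7%). The element is shown in capitals for 2 genes lower in ADM and for Rsad2, which was higher, on the strand of the gene, from chr4:156200856-156200915 (−), chr19:34583365-34583424 (+) and chr12:26456538-26456597 (−), GRCm38.p6. Overlapping matches run together in Isg15.
Isg15: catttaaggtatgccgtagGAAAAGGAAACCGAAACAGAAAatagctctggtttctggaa
Ifit3: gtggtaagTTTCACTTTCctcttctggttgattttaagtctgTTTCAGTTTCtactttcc
Rsad2: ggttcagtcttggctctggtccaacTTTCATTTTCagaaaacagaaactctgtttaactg

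Markers of the surrounding tissue moved with the duct side in part. Of 15 endothelial genes 9 were lower in ADM and 2 higher (median −1.34), with Vwf at 0.94 in ADM and 2.36 in duct, Cdh5 at −0.64 and 1.25, and Pecam1 in the other direction by at least 2.71. Of 12 smooth muscle and pericyte genes 7 were lower and 2 higher (median −1.27), with Acta2 at −1.58 in ADM, 2.29 in duct and 2.04 in acinar. Mesothelial genes were lower in 4 of 5, led by Msln (at least −5.63), and nerve and Schwann cell genes in 4 of 8, led by S100b (at least −4.45). Fibroblast genes were higher and lower at shares near those of all genes (21.6% and 24.8%). Of 24, 4 were higher, 6 lower and 14 within 2-fold (median 0.08), the last including Col1a1 (5.31 in ADM, 5.27 in duct, 3.58 in acinar), Pdgfrb (3.55, 3.47 and 0.50) and Vim (4.43, 4.26 and 2.80). Genes of activated fibroblasts went both ways. Acta2, which they share with smooth muscle, differed by −3.87, whereas Postn (at least 5.31), Lox (at least 5.73, both probes) and Fap (3.21) were higher in ADM, and Thy1 (−2.33) and Fbln2 (−2.38) lower. Summed linear levels were 485 in ADM and 627 in duct for 26 fibroblast genes, 20.8 and 42.2 for 17 endothelial genes, and 9.01 and 28.5 for 8 mesothelial genes. For 13 smooth muscle genes the sum went the other way, 1244 in ADM and 831 in duct. Islet genes were within 2-fold in 11 of 21, near the share of all genes (7760 of 14475). Ins2 stood at 9.25 in ADM, 8.36 in duct and 8.80 in acinar. The part of these cells in the laminin, interferon and junction differences was not tested.

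The largest single differences were sought among genes above background on both ADM and duct. Their difference also had to stay past 2-fold under each other background correction and scaling. Higher in ADM, beside Ahcy, Pnliprp2, Wars, Rbpjl, Nr5a2 and Gatm, were Ets1 (6.06), Chst2 (5.94), the sterol-regulated Tmem97 (5.82), Smox, which oxidises spermine (5.46), and Vac14 (5.42). Ets1 stood at 3.05 in ADM, −3.01 in duct and 1.59 in acinar, and its other probe gave 1.41. Pwwp3a differed by 5.55, but its other probe by −0.39. Lower in ADM were Rgs16 (−6.41, at −2.42 in ADM and 3.99 in duct), Spink4 (−6.28), a trypsin inhibitor of goblet cells, the carbonic anhydrase Car13 (−6.24), Tent5b (−6.19), the sterol enzyme Idi1 (−5.69) and Nr2f2 (−5.58), a nuclear receptor of vessels and mesenchyme. Nfx1 (−5.58) was lower by all 3 of its probes. The largest, Taok2 (−7.19), and Dcaf17 (−5.37) each had a second probe in the other direction.

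Other genes were picked because all of their compared probes were at least 2-fold apart in 1 direction. Probes of a gene share the RNA of 1 array, so their agreement is no replicate of the comparison. Higher in ADM by both probes were Arhgdig (at least 6.86), Phgdh (5.09), Serpina10 (4.64), Lbh (4.60), Hmox1 (4.16), Glp1r (4.10) and Serpina6 (3.94). Arhgdig, Phgdh, Lbh, Glp1r and Serpina6 were higher still in acinar, while Serpina10 (3.69 in ADM, −0.95 in duct, 1.32 in acinar) and Hmox1 were highest in ADM. Lower by both probes were Gkap1 (−4.60), Bicral (−4.67), Acsm3 (at least −5.39), Sult1a1 (−3.48), Tinagl1 (−3.81), a basement membrane protein, and Plet1 (−3.38). Plet1, a surface marker of duct progenitors, stood at 2.80 in ADM, 6.18 in duct and not above background in acinar. Among genes above background on only 1 of the ADM and duct arrays, Cuzd1 and Cckar, Bex2 (at least 263-fold) and Cabp2 (at least 170-fold) were found in ADM. In acinar these 4 stood at 7.04, 5.53, 3.50 and 6.59, so they were not particular to ADM. Slbp, the histone mRNA binding protein, was at least 377-fold higher in duct with both probes in that direction, and Fcgbp, a mucus protein, at least 162-fold.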

How the data were processed

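Intensities were deposited as scanner output of Agilent Feature Extraction 11.5.1.1, 1 colour (Cy3), with background subtracted and spatially detrended within the array and no scaling between arrays, per the file headers. Before labelling, 1.181 ng of RNA went through Ovation Pico WTA V2 amplification, per the labels' protocols, and amplification from so little RNA can distort single transcripts. The deposited table of log2 values equals log2 of the same processed signals less a constant for each array, with all 32905 matched probes within 0.001, and was used as an alternative; the origin of the constants is not stated in the sources used.

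The log2 processed signal less the 75th percentile of its array was taken as level. Control spots and outlier flags were left out, and 0 spots were saturated. Probes were named by accession through the RefSeq gene table (GRCm38.p6, names only); 27644 probes stayed unnamed. A gene was read from its brightest probe by mean over 3 arrays. Where 1 side was below background, its signal was raised, if needed, to the dimmest above-background signal of that array, which gives a bound. Values used Python 3.11.15, numpy 2.4.6, pandas 2.3.3, R 4.3.3 and limma 3.58.1, and the steps were tested on simulated data.

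Named genes are the largest differences kept under other scalings and those whose probes all agreed. They also include those above background on only 1 of the ADM and duct arrays, and the extreme, textbook and discordant members of each list. The gene lists and members were chosen with earlier results of these data known. Alternatives were other scalings, filters, probe choices, normexp and the deposited table. Normexp was planned on the mean spot signal and run on the median one, the column the tables hold. Some members counted in the lists are not reported here by name.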

Additional observations from a re-analysis of the deposited data

How the results depend on the processing

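Every count rests on 1 array a group, so nothing here measures the spread between animals, and no replicate could be left out. No paired analysis was possible because each group has 1 array. Counts of genes higher in ADM moved from 3121 to 1472 with normexp, 2071 with a filter on both arrays and 1014 by the second-brightest probe, and those lower from 3594 to 2147 with normexp and 843 by the second-brightest probe. The second-brightest probe could be compared for 3481 genes, so those counts fall by construction. The filter on both arrays left each difference as it was and kept 11455 of 14475 genes, so its count also falls by construction. For the changes with normexp the cause was not tested. The order of higher and lower turned with the 75th percentile over probes above background on both arrays (3469 and 3275) and in the deposited table (3401 and 3328), and widened with ribosomal protein genes centred on 0 (2530 and 4389). Scalings moved the median of all genes by 0.12 (75th percentile over probes above background on both arrays), −0.16 (median) and −0.27 (ribosomal protein genes centred on 0, chosen after seeing the data, as was normexp on the median signal).

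By the second-brightest probe the genes higher in ADM numbered 2 serine proteases, 0 Reg genes, 7 serine and glycine enzymes, 2 tRNA synthetases, 4 amino acid transporters, 2 p53 targets, 4 macrophage genes, 2 lipid-associated genes, 3 lysosomal genes and 2 DNA replication genes, and those lower 3 duct factors, 3 duct transporters, 4 junction genes, 1 laminin, 1 annexin and 3 interferon-stimulated genes. Most members of each list had a single compared probe, so these counts fall in large part by construction. Members with several compared probes numbered 2, 0, 8, 2, 5, 3, 6, 2, 4 and 3 in the lists of higher genes, in the same order. For the lists of lower genes the numbers were 6, 5, 8, 2, 3 and 7. Normexp left 9 p53 targets and 12 replication genes.

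Of 27 lists with a median at least 2-fold, 27 kept direction under each scaling and normexp, and 16 kept 2-fold under normexp. The percentile, median and ribosomal scalings moved differences by constants of 0.12, −0.16 and −0.27. These constants could not turn a 2-fold difference, so kept direction under them was fixed in advance. Medians that turned were smooth muscle (1.29), endothelial (0.61), nerve (3.14), CC chemokines (−1.32) and CXC chemokines (−1.88) by the second-brightest probe, and nerve (0.026) without a filter. Of 296 named genes at least 2-fold apart, 296 kept direction under each scaling and normexp, 261 of them past 2-fold under normexp. The same limit holds here, and part of the named genes were picked for staying past 2-fold under such settings. Over all genes at least 2-fold apart, the second probe kept direction in 1014 of 1533 (66.1%). Of the 84 named genes with a second probe 74 kept direction, but part of them were named because their probes agreed. Those that turned by that probe were Birc5 (−0.15), Dcaf17 (0.71), Dclk1 (2.10), Ddx58 (1.55), Kif3a (3.11), Pwwp3a (−0.39), Rbpj (−0.41), Rfx3 (0.11), Slc36a1 (2.51) and Taok2 (1.94). By the mean of probes Dclk1 (0.38), Ddx58 (0.040), Kif3a (0.50) and Slc36a1 (0.45) turned.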

Other observations

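A set of 146 genes had levels of 8 or more on all 3 arrays, and 14 of them encode ribosomal proteins. Between ADM and duct 143 of the 146 were within 2-fold, with a median of 0.47, and 129 were ordered acinar, ADM, duct from high to low. Among the set are Snap23, Itgam, Krt222 and Pkp3. The second probe of Itgam had a mean level of −1.19, so a bright signal of a single probe is not by itself a measure of its named gene.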
